A study of Canis lupus familiaris with 15 samples.

Results

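Chemokines, interleukins and their receptors were examined in RNA sequencing of canine osteosarcoma lines and of sub-lines grown from cells that had left zebrafish blood vessels. Members were chosen by gene symbol. The symbols were those of numbered chemokine ligands (CCL, CXCL, CX3CL), chemokine receptors (CCR, CXCR, ACKR), interleukins and interleukin receptors, together with LIF, LIFR, OSMR, IL6ST, CSF1, CSF2, CSF3 and TSLP. The rule found 29 of the 7698 distinct genes in 3 tables of genes that the authors called differentially expressed. By table, it found 23 of 4412 genes for extravasation-positive against parental D17 cells, 7 of 1189 for extravasation-positive against parental HMPOS cells, and 16 of 5746 for parental HMPOS against parental POS cells. Because each table holds called genes alone, a place in it is not a finding here, and nothing is known here of the level of a gene that a table does not list.

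The 15 libraries fall into 5 groups of 3, named D17 extravasation-positive, D17 parental, HMPOS extravasation-positive, HMPOS parental and POS parental. D17, HMPOS and POS are canine osteosarcoma lines, and HMPOS was derived from POS as a sub-line with a high rate of metastasis. To obtain the extravasation-positive sub-lines, cells of D17 and HMPOS were introduced into the bloodstream of zebrafish carrying the vessel reporter Tg(fli1a:EGFP), and the groups of cells recovered outside the vessels were grown in culture. Parental cells were the lines in culture, so infusion, passage through the fish, isolation and expansion all differ between the groups and cannot be told apart.

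Chemokines are small secreted proteins that direct the movement of cells bearing matching G protein-coupled receptors, whereas interleukins and the IL-6 family act through receptor chains that are often shared. IL6ST is the common signal chain for IL-6, IL-11, LIF and oncostatin M and acts through JAK kinases and STAT factors, and receptors of the IL-1 family act through MYD88 and NF-kB. In bone, CSF1 and IL34 act on macrophages and osteoclast precursors through CSF1R, and cytokines of the IL-6 family act on osteoblasts and osteoclasts.

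Expression is given in FPKM, which counts sequenced fragments relative to the size of the transcript and of the library. Each FPKM is the authors' single value for the libraries of a group, so no SD or n can be given, no difference has a replicate check, and the sequencing depth is unknown. The article calls the isolated clusters biological replicates, and the labels do not say whether the libraries of a group came from separate cultures. Log2 ratios were computed from these values as extravasation-positive over parental, or as HMPOS over POS. The direction rests on the column names, in which "norm" was read as parental and "meta" as extravasation-positive. The article's account of direction is in conflict with the directions that this reading gives. Whether the article read the names the other way or took its ratios as parental over extravasation-positive is not stated. In both lines, the article's numbers of upregulated and downregulated genes are about the reverse of the numbers found with this reading. With the names read the other way round, every direction given below between extravasation-positive and parental cells would turn. The HMPOS values set against POS come from a column of the same name, so they would then belong to the other HMPOS group. POS, which has parental libraries alone, carries the name norm. The HMPOS norm values for 907 genes also appeared in the table with POS, with a median absolute log2 difference of 0.00135 between the tables.

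The osteosarcoma label was compared with 12 osteoblast markers, of which 7 were listed for D17, 6 for HMPOS and 8 for HMPOS against POS. COL1A1, a chain of bone collagen, was at 397 FPKM in extravasation-positive and 224 FPKM in parental D17 cells, and at 101.9 and 76.0 FPKM in the corresponding HMPOS cells. SPARC, the matrix protein osteonectin, was at 2897 FPKM in extravasation-positive and 1777 FPKM in parental HMPOS cells. BGLAP, which encodes osteocalcin, was at 27.3 FPKM in parental HMPOS and 676 FPKM in parental POS cells. RUNX2, an early osteoblast regulator, was listed in no table.

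With this reading of the names, chemokine and interleukin genes of D17 cells were mostly higher in the extravasation-positive sub-line. Of the 23 listed members 21 were higher and 2 lower, that is, 91.3% higher against 54.2% of all genes in the table. Past a 2-fold change, 14 members were higher and 1 was lower, where 18.3% of all listed genes were higher and 8.50% lower past that fold. The median log2 ratio was 1.16 over the members and 0.39 over all listed genes. Relative to this latter median, the same split of 21 higher and 2 lower was found, and past 2-fold 10 were higher and 2 lower, where 10.8% of all listed genes were higher and 23.0% lower on that scale. With the group names read the other way round, 8.70% of the members and 45.8% of all listed genes would be higher. IL33, CXCL10, CCL26 and CCL5 had the largest ratios among members that reached 1 FPKM in either group, and IL17RD was the only member lower past 2-fold. The place of CCL26 rests on a low parental value. Its log2 ratio was 1.54 with 1 FPKM added to each value, below those of IL34 (1.92) and IL1R1 (1.58). In bulk RNA of this kind, a change in the share of cells that express a gene and a change in RNA per cell cannot be told apart.

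All 5 chemokine ligands listed for D17 were higher in the extravasation-positive cells. CCL5, which attracts T cells and monocytes, was at 50.1 FPKM in extravasation-positive and 6.26 FPKM in parental cells, 8.00-fold higher (log2 ratio 3.00). The gene is ENSCAFG00000018171, placed by the table on CanFam3.1 chromosome 9 from 37817390 to 37823880. In level, 20.9% of the listed genes lay above CCL5 in the extravasation-positive cells and 69.6% in the parental cells. CXCL10 (ENSCAFG00000008584, chromosome 32, 597633 to 600003), an interferon-induced ligand of CXCR3, was at 22.3 FPKM against 1.17 FPKM, a log2 ratio of 4.25. Of 4236 listed genes with at least 1 FPKM in either group, its increase ranked 14 and that of CCL5 ranked 55. Both would be ranks among the decreases with the names the other way round. CCL26, an eotaxin that acts through CCR3, was at 2.81 FPKM in extravasation-positive and 0.310 FPKM in parental cells, and CCL2, a monocyte attractant that acts through CCR2, at 3.47 and 0.887 FPKM. Their log2 ratios were 3.18 and 1.97, or 1.54 and 1.25 with 1 FPKM added to each value. CX3CL1, a chemokine made as a membrane-bound protein, showed the smallest ratio of the 5, with 7.21 FPKM in extravasation-positive and 5.18 FPKM in parental cells. The summed level of these ligands was 85.9 FPKM against 13.8 FPKM, and CCL5 made up 58.3% of the sum in extravasation-positive and 45.3% in parental cells.

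The 3 interleukins listed for D17 were IL33, IL34 and IL6, each higher in the extravasation-positive cells past 2-fold. IL33, a nuclear cytokine of the IL-1 family released from damaged cells, was at 23.8 FPKM in extravasation-positive and 0.547 FPKM in parental cells, 43.4-fold higher (log2 ratio 5.44). The parental value is below 1 FPKM, and the log2 ratio was 4.00 with 1 FPKM added to each value. Without that addition, the ratio of IL33 was the largest among members with a value above 0 in both groups. It ranked 4 among the 4236 D17 genes with at least 1 FPKM when these were ordered by the ratio in its direction, an increase or, with the names the other way round, a decrease. IL33 is ENSCAFG00000030105, on chromosome 11 from 27219877 to 27258909, and neither the HMPOS table nor the table with POS listed it. IL34, the alternative ligand of CSF1R, had the highest level of all members in these cells, with 85.8 FPKM against 21.9 FPKM in parental cells and a log2 ratio of 1.97. IL6 lay below 1 FPKM in both groups, at 0.446 and 0.0562 FPKM, so its log2 ratio of 2.99 rests on low values. With 1 FPKM added to each value that ratio was 0.45.

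Of the 10 interleukin receptor genes listed for D17, 9 were higher and 1 lower in the extravasation-positive cells, with 5 higher past 2-fold. IL1R1, the signaling receptor for IL-1, was at 7.41 FPKM against 1.81 FPKM (log2 ratio 2.03), and its accessory chain IL1RAP, which is also a co-receptor for IL-33, at 8.40 against 4.08 FPKM (log2 ratio 1.04). IL13RA1, a signaling chain for IL-13 and IL-4, was the most abundant of these receptor genes, at 76.1 and 36.3 FPKM, whereas the decoy receptor gene IL13RA2 was low, at 1.42 and 0.245 FPKM. Their log2 ratios were 1.07 and 2.53, the latter from low values and 0.96 with 1 FPKM added to each. IL11RA, the specific receptor for IL-11, was at 3.26 FPKM in extravasation-positive and 1.18 FPKM in parental cells (log2 ratio 1.46). Smaller ratios were found for 4 further chains that bind or help to bind their ligands. IL15RA, which presents IL-15 to neighboring cells, was at 4.13 and 2.08 FPKM, just under 2-fold, and IL27RA, which signals together with IL6ST, at 31.1 and 18.5 FPKM. IL17RC, a chain of the IL-17 receptor, was at 14.8 and 9.59 FPKM, and IL7R, shared by IL-7 and TSLP, at 26.7 and 17.9 FPKM. IL17RD, also known as SEF and as an inhibitor of fibroblast growth factor signaling, went the other way, with 1.06 FPKM in extravasation-positive and 3.55 FPKM in parental cells and a log2 ratio of -1.74.

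Among LIF, CSF1 and the receptors of the IL-6 family, 4 of 5 listed genes were higher in extravasation-positive D17 cells. LIF, a cytokine that acts through LIFR and IL6ST, was at 16.6 FPKM against 6.78 FPKM, a log2 ratio of 1.29. Its own receptor gene LIFR was lower, at 17.4 against 34.2 FPKM and a log2 ratio of -0.98. The oncostatin M receptor gene OSMR was higher, at 68.4 against 37.3 FPKM (log2 ratio 0.87), and so was the common chain IL6ST, at 52.8 against 31.3 FPKM (log2 ratio 0.76). CSF1, which drives macrophage and osteoclast growth, was at 12.8 FPKM in extravasation-positive and 5.73 FPKM in parental cells (log2 ratio 1.16). In parental D17 cells LIFR and OSMR were thus close in level, at 34.2 and 37.3 FPKM, and in the extravasation-positive cells OSMR lay at 68.4 and LIFR at 17.4 FPKM.

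**Figure D1:**
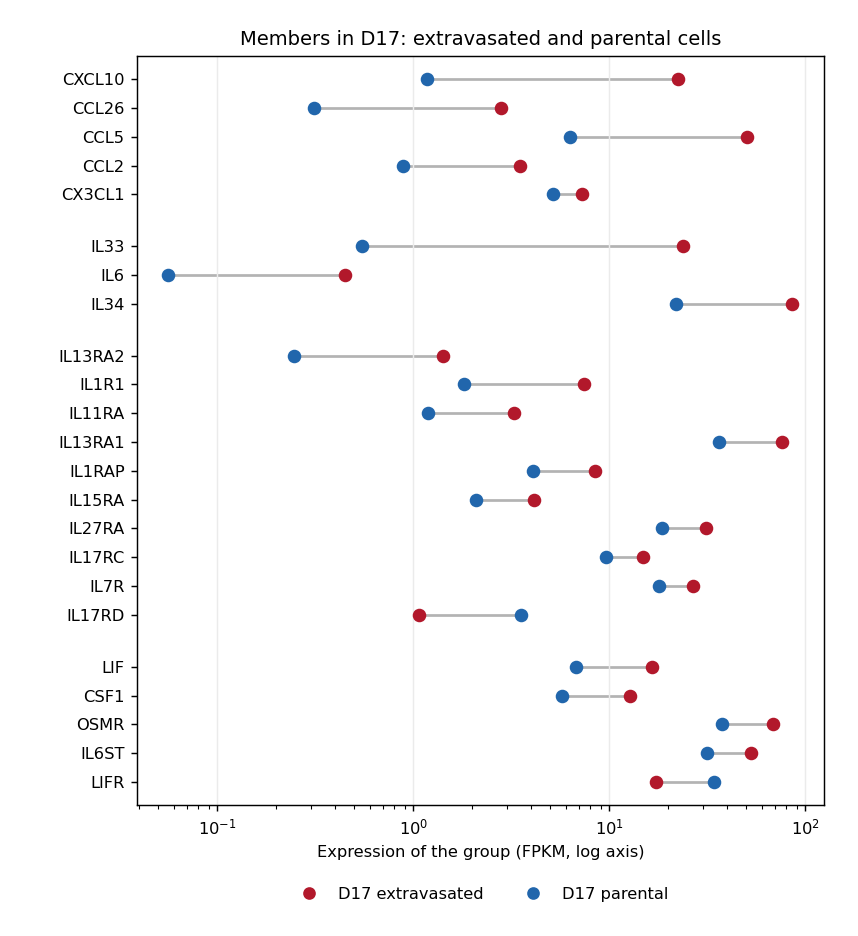
Expression of the 23 members listed for D17, in FPKM on a log axis, with 1 point per group (the authors' value for that group) and a gray line joining both points of a gene. Genes are set out by role, from chemokine ligands at the top to LIF, CSF1 and the IL-6 family receptors at the bottom, and only IL17RD and LIFR have the extravasation-positive point to the left of the parental point.

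In HMPOS cells, the table listed 7 members, and with the same reading of the names the chemokine ligands CCL5, CCL2 and CXCL8 were higher in the extravasation-positive cells whereas CXCL14 was lower. In all, 6 members were higher and 1 lower, which is 85.7% higher against 67.0% of all genes in the table. With the names the other way round the shares would be 14.3% and 33.0%. Past 2-fold, 3 members were higher and 1 lower, where 20.5% of all listed genes were higher and 4.79% lower. The median log2 ratio was 0.92 over the members and 0.58 over all listed genes. Relative to that median of 0.58, 5 members were higher and 2 lower (71.4% higher), and past 2-fold 1 was higher and 1 lower, where 6.06% and 30.4% of all listed genes were, so the counts for HMPOS depend on the scaling.

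CCL5 was at 2.27 FPKM in extravasation-positive and 0.391 FPKM in parental HMPOS cells, a log2 ratio of 2.54. Its increase, a decrease with the names the other way round, ranked 11 among the 1133 listed genes with at least 1 FPKM in either group. The ratio rests on a parental value below 1 FPKM, and its log2 was 1.23 with 1 FPKM added to each value. CCL2 (ENSCAFG00000018349, chromosome 9, 39007881 to 39010042) was at 13.1 against 4.36 FPKM, a log2 ratio of 1.58. CXCL8, the neutrophil attractant interleukin-8, had a log2 ratio of 1.56 from values below 1 FPKM in both groups, 0.693 and 0.236 FPKM. CXCL14 (ENSCAFG00000001084, chromosome 11, 23589231 to 23710446), a chemokine made by many epithelia, was at 1.86 FPKM in extravasation-positive and 20.5 FPKM in parental cells. Its log2 ratio of -3.46 was the lowest of any HMPOS member and ranked 6 among the decreases of the 1133 genes. Turned, with the names the other way round, the ratio would be the highest of any HMPOS member and rank 6 among the increases. The summed level of the 4 ligands was 17.9 FPKM in extravasation-positive and 25.4 FPKM in parental cells. CCL2 made up 73.0% of this sum in the former and CXCL14 80.4% in the latter, so the most abundant listed ligand differed between the groups although 3 of 4 were higher.

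The 3 other members listed for HMPOS were all higher by less than 2-fold. IL11RA (ENSCAFG00000001951, chromosome 11, 51324453 to 51334380) was at 87.0 FPKM in extravasation-positive and 59.0 FPKM in parental cells, the highest level of the 7 members in both groups. Its log2 ratio of 0.56 was -0.02 relative to the median of all listed genes. CSF1 was at 34.9 and 18.4 FPKM (log2 ratio 0.92) and IL1R1 (ENSCAFG00000002147, chromosome 10, 40828895 to 40847121) at 7.89 and 4.88 FPKM (log2 ratio 0.69). Apart from CXCL8, counted here as a chemokine, no interleukin was among the listed HMPOS genes. No chemokine receptor was listed for HMPOS, and no chemokine receptor was listed for D17.

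CCL2, CCL5, CSF1, IL11RA and IL1R1 were listed for both lines. These 5 genes are 21.7% of the D17 members and 71.4% of the HMPOS members, where 614 genes of any kind, 13.9% of the D17 table and 51.6% of the HMPOS table, were in both. All 5 had the same direction in each line, as did 535 of the 614 genes (87.1%), whichever way the names are read, and IL11RA of HMPOS turned relative to the median. The tables were normalized separately, so levels set across them are side by side only. CCL5 was higher in D17 than in HMPOS cells, and CCL2 was lower, at 3.47 and 0.887 FPKM in D17 and 13.1 and 4.36 FPKM in HMPOS. IL11RA was at 1.18 FPKM in parental D17 and 59.0 FPKM in parental HMPOS cells. The difference between the lines in any of these ratios was not tested.

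**Figure D2:**
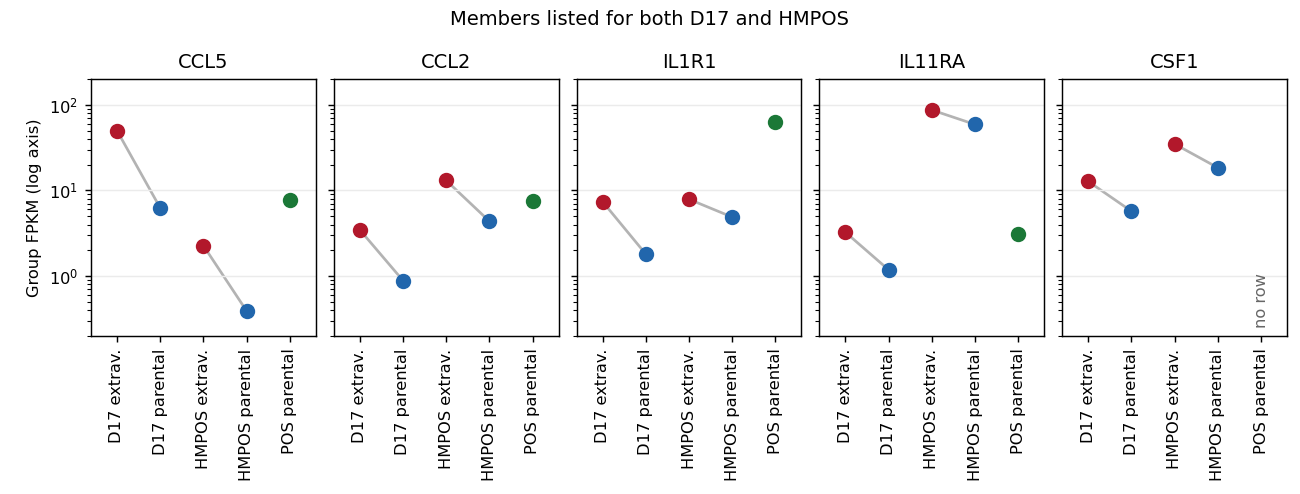
Expression in FPKM on a log axis of the 5 members listed for both D17 and HMPOS, with 1 point per group (the authors' value) and a gray line from extravasation-positive to parental cells of a line. All 10 lines run downward, POS parental cells are shown where the table with POS lists the gene, and the tables were normalized separately.

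Parental HMPOS cells were compared with the parental POS cells from which they were derived. This comparison shares the HMPOS parental libraries with the preceding one, so values are given for each without counting genes between them. Most members were lower in HMPOS, including CCL5, CXCL10 and IL1R1, and IL11RA, CXCL14, CXCR4 and LIFR were higher. Of 16 members 4 were higher and 12 lower, that is, 25.0% higher against 47.7% of all genes in the table. Past 2-fold, 3 members were higher and 7 lower, where 8.49% of all listed genes were higher and 19.1% lower. The median log2 ratio was -0.93 over 15 members with a ratio and -0.31 over all listed genes. Relative to the latter median 5 members were higher and 11 lower, with IL6ST on the other side. Past 2-fold on that scale, 3 members were higher and 7 lower, where 17.5% of all listed genes were higher and 13.2% lower.

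Of the 5 chemokine ligands 4 were lower in HMPOS. CCL5 was at 0.391 FPKM in HMPOS against 7.84 FPKM in POS cells, a log2 ratio of -4.32 (20.0-fold lower), and CXCL10 was at 0.0734 and 1.58 FPKM, a log2 ratio of -4.43. With 1 FPKM added to each value the log2 ratios were -2.67 and -1.26. CCL17, a ligand of CCR4 that attracts T helper cells, was at 0.538 against 1.84 FPKM (log2 ratio -1.77), and CCL2 at 4.36 against 7.47 FPKM (log2 ratio -0.78). CXCL14 stood apart from the other ligands, at 20.4 FPKM in HMPOS and listed at 0 in POS, so no fold is given. In extravasation-positive HMPOS cells CXCL14 was at 1.86 FPKM, a value from the other table, which was normalized separately.

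The 2 chemokine receptor genes listed in any table appeared here. CXCR4 (ENSCAFG00000005109, chromosome 19, 38795007 to 38911567), the receptor for CXCL12, was at 3.00 FPKM in HMPOS against 0.887 FPKM in POS cells, a log2 ratio of 1.76. ACKR3, an atypical receptor that takes up CXCL12 without classical G protein signaling, was at 5.53 against 10.6 FPKM, a log2 ratio of -0.93. Both receptors of the same ligand were thus listed with opposite directions.

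The interleukins IL34 and IL11 were both lower in HMPOS than in POS cells, at 3.26 against 8.34 FPKM and 0.606 against 1.62 FPKM. IL11 acts on bone cells through IL11RA, which was at 58.9 FPKM in HMPOS against 3.06 FPKM in POS cells. The log2 ratio was -1.41 for the ligand (-0.70 with 1 FPKM added to each value) and 4.27 for its receptor. IL1R1 was at 4.88 FPKM in HMPOS against 62.4 FPKM in POS cells (log2 ratio -3.68), so that IL11RA was the more abundant of these receptors in HMPOS and IL1R1 in POS. IL15RA was below 1 FPKM in both groups, at 0.0696 and 0.595 FPKM. IL13RA1 had the highest level of all members in both lines, at 96.4 and 144.4 FPKM, and IL17RC was at 21.7 and 29.4 FPKM. Their log2 ratios were -0.58 and -0.44. Of the IL-6 family receptors, LIFR was at 60.0 FPKM in HMPOS against 46.5 FPKM in POS cells and IL6ST at 37.3 and 44.6 FPKM, with log2 ratios of 0.37 and -0.26. For IL6ST, the ratio was 0.05 relative to the median of all listed genes.

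**Figure D3:**
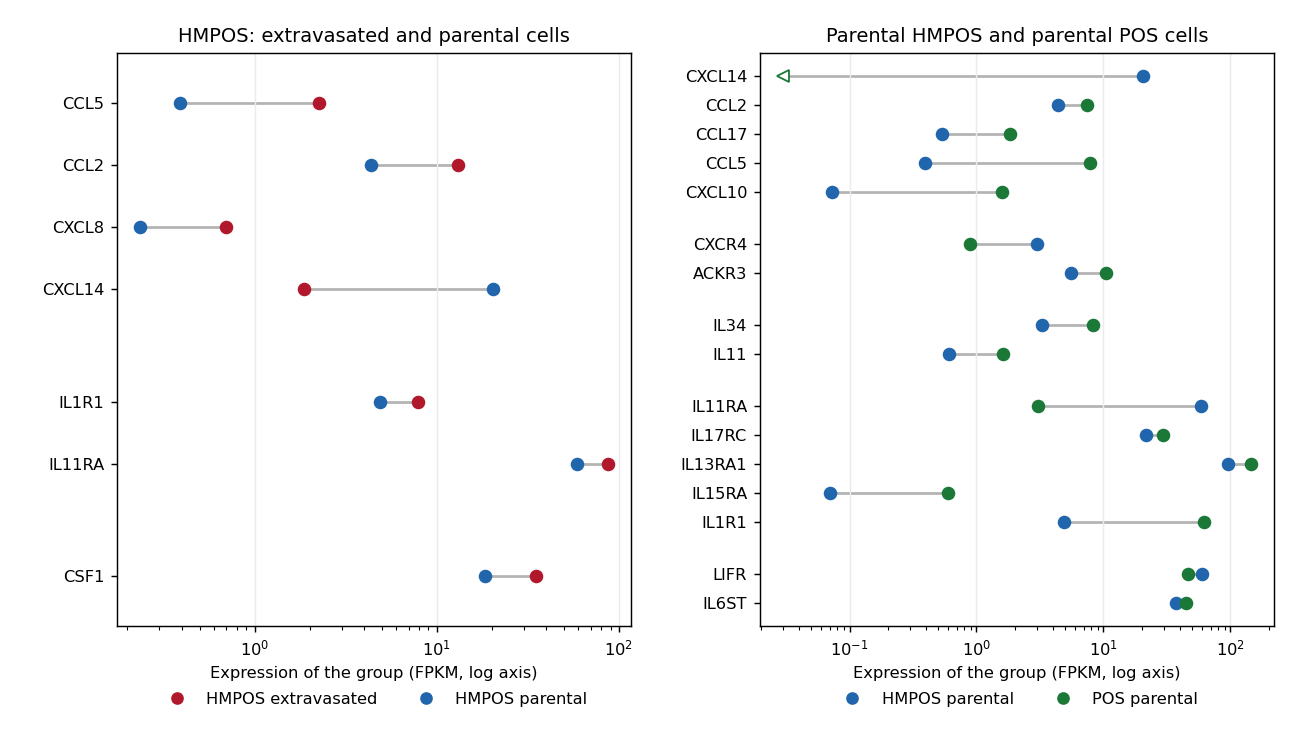
Expression in FPKM on a log axis of the 7 members listed for extravasation-positive against parental HMPOS cells (left) and of the 16 listed for parental HMPOS against parental POS cells (right), with 1 point per group and a gray line joining both points of a gene. The open triangle at the left edge is CXCL14 in POS cells, listed at 0, which has no place on a log axis, and on the right most HMPOS points lie to the left of the POS points.

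Receptors of the D17 chemokines (CCR1, CCR2, CCR3, CXCR3 and CX3CR1), the IL-33 receptor IL1RL1 and CSF1R were in no table. Since the tables hold called genes alone, this does not say whether these genes were expressed.

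Genes that carry or shape the signals of these receptors were taken from lists. Their directions in D17 and HMPOS rest on the same reading of the group names. With the names the other way round, higher and lower exchange in the D17 and HMPOS counts of every list below. Past 2-fold, 8.50% of all D17 genes would then be higher and 18.3% lower. Of 35 genes of NF-kB and IL-1 receptor signaling, 18 were listed for D17, 13 higher and 5 lower in extravasation-positive cells, with 4 higher past 2-fold and a median log2 ratio of 0.64. The share past 2-fold, 22.2%, was close to the 18.3% of all D17 genes. RELB, a subunit of the noncanonical NF-kB pathway, was at 26.1 against 10.2 FPKM, and NFKBIA, an inhibitor that NF-kB itself induces, at 28.2 against 17.2 FPKM. BCL3, a nuclear cofactor of NF-kB, was at 24.2 and 13.1 FPKM. SIGIRR, an inhibitory receptor of the IL-1 family, was at 4.50 and 1.38 FPKM in D17 and was the only gene of this list listed for HMPOS, at 1.57 and 0.587 FPKM. In parental HMPOS against POS cells, 21 of the 35 genes were listed, 3 higher and 18 lower, with 8 lower past 2-fold (38.1%, against 19.1% of all genes in that table) and a median log2 ratio of -0.79. The lower genes included MYD88, the adaptor of IL-1 and Toll-like receptors, at 17.8 against 65.1 FPKM, the NF-kB inhibitor TNFAIP3 at 0.631 against 4.08 FPKM, and BCL3 at 0.298 against 3.36 FPKM. Relative to the medians of all listed genes the splits were 12 higher and 6 lower for D17 and 4 higher and 17 lower for HMPOS against POS.

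Of 26 JAK-STAT genes, 5 were listed for D17, 4 higher and 1 lower, or 3 and 2 relative to the median of all listed genes, where SOCS5 turned. STAT5A was the only gene past 2-fold (20.0% of those listed, against 18.3% of all D17 genes), at 17.2 against 7.84 FPKM, and STAT3, the main factor downstream of IL6ST, was at 66.5 against 47.6 FPKM. HMPOS had 1 listed gene, PIAS1, a regulator of STAT activity, at 9.90 in extravasation-positive and 13.1 FPKM in parental cells. In HMPOS against POS cells 11 were listed, 4 higher and 7 lower, and STAT3 was at 42.6 against 84.1 FPKM.

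A further list held 16 symbols for sensing of RNA and DNA and the factors that lead from it to chemokine genes. Some of these symbols are older and newer names of the same gene. For D17, 7 were listed and 7 were higher in extravasation-positive cells, with a median log2 ratio of 1.00. Past 2-fold, 4 of them were higher (57.1%, against 18.3% of all D17 genes). DDX58, which encodes the RNA sensor RIG-I, was at 64.0 against 18.8 FPKM, and DHX58, which encodes the related LGP2, at 19.2 against 3.60 FPKM. TLR3, the endosomal receptor for double-stranded RNA, and IFIH1, which encodes the sensor MDA5, lay just past 2-fold at 17.8 against 8.92 FPKM and 13.0 against 6.48 FPKM. The only listed gene for HMPOS was IRF8, of the same family of factors as IRF1 and IRF9, at 1.51 FPKM in extravasation-positive and 0.448 FPKM in parental cells. In parental HMPOS against POS cells, 7 were listed and 7 were lower past 2-fold, where 19.1% of all listed genes were, with a median log2 ratio of -4.10. DDX58 was at 3.42 FPKM in HMPOS against 143.1 FPKM in POS cells, IFIH1 at 1.48 and 65.7 FPKM, DHX58 at 0.442 and 30.3 FPKM, and IRF9, a factor of the interferon regulatory family, at 9.57 and 72.0 FPKM.

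Of 50 related cytokine and receptor genes outside the naming rule, 13 were listed for D17, 10 higher and 3 lower, with 7 higher past 2-fold (53.8%, against 18.3% of all D17 genes) and a median log2 ratio of 1.04. The leptin receptor gene LEPR, related in structure to IL6ST, was at 241.9 against 92.1 FPKM. TNFSF10, the death ligand TRAIL, was at 67.4 against 25.6 FPKM in D17. It was also higher in extravasation-positive HMPOS cells, at 3.88 against 1.68 FPKM, as was CNTFR, a receptor chain for ciliary neurotrophic factor, at 11.0 against 5.41 FPKM. TNFRSF11B, which encodes osteoprotegerin, the decoy receptor that restrains osteoclasts, was the third and last gene listed for HMPOS, at 37.3 FPKM in extravasation-positive and 74.6 FPKM in parental cells. In HMPOS against POS cells 16 were listed, 5 higher and 11 lower, with 3 higher and 6 lower past 2-fold (18.8% and 37.5%, against 8.49% and 19.1% of all genes) and a median log2 ratio of -0.70. TNFRSF11B was at 74.5 FPKM in HMPOS against 15.4 FPKM in POS cells, and TNFSF10 at 1.68 and 26.6 FPKM.

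**Figure D4:**
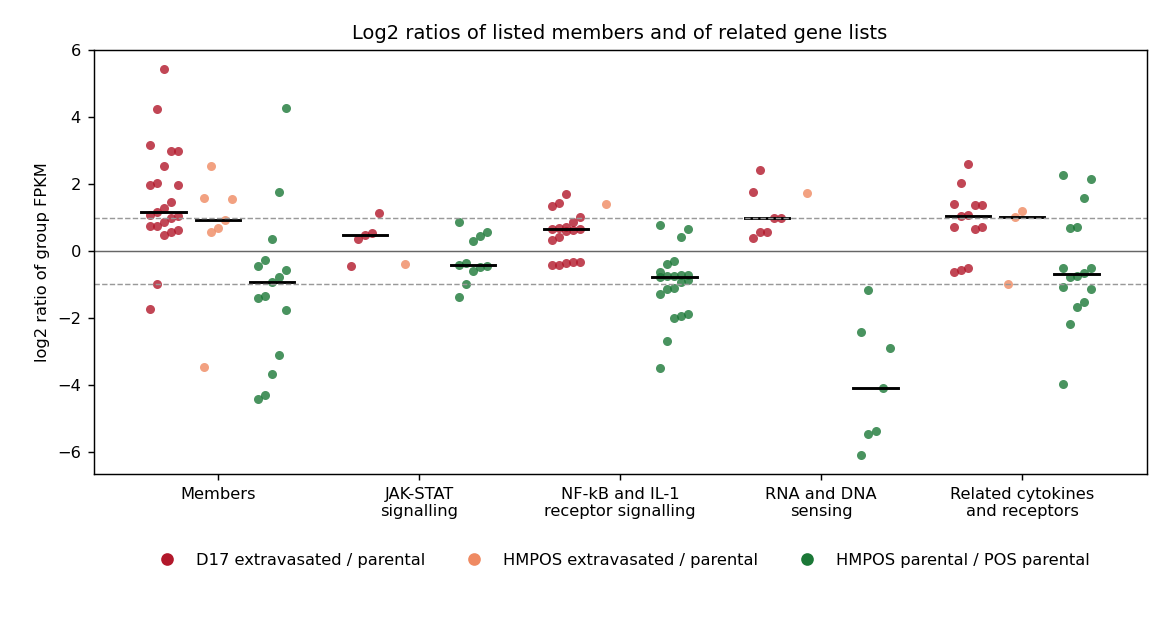
Log2 ratios of the members and of 4 lists of related genes in each comparison, with 1 point per listed gene, black bars at the medians of sets with more than 1 gene and dashed lines at a 2-fold change. CXCL14 in HMPOS against POS has no ratio and is not drawn, and the sensing genes of that comparison reach the lowest median, -4.10.

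Markers of other cell types were few among the listed genes. Since called genes alone are listed, this does not say whether these markers were expressed or whether such cells were present. Of 18 leukocyte markers 1 was listed for D17, LCP1, an actin-bundling protein that tumor cells also make, at 33.2 FPKM in extravasation-positive and 12.0 FPKM in parental cells, and 0 for HMPOS and for HMPOS against POS. PTPRC, CD3E, CD14 and CD68 were in no table. Of 10 endothelial markers, FLT1 was listed for D17, at 2.80 and 1.94 FPKM, and 0 for HMPOS. EGFL7 and KDR were listed for HMPOS against POS, with a summed level of 10.2 FPKM in HMPOS against 26.2 FPKM in POS, of which EGFL7 held 10.1 and 24.4 FPKM. KDR was at 0.146 FPKM in HMPOS against 1.73 FPKM in POS, so its log2 ratio of -3.57 rests on low values. Of the osteoblast markers, 6 of 7 were higher in extravasation-positive D17 cells (85.7%, against 54.2% of all genes), 4 of them past 2-fold (57.1%, against 18.3%). In extravasation-positive HMPOS cells 5 of 6 were higher (83.3%, against 67.0%), or 4 of 6 relative to the median, and past 2-fold 1 was higher and 1 lower, the latter being IBSP, bone sialoprotein, at 0.427 against 2.05 FPKM. In HMPOS against POS cells 1 of 8 was higher (12.5%, against 47.7%) and 5 were lower past 2-fold (62.5%, against 19.1%). With the names the other way round, 14.3% of these markers and 45.8% of all genes would be higher in D17, and 16.7% and 33.0% in HMPOS. Their summed level was 2242 against 931 FPKM, 3125 against 1923 FPKM and 2057 against 5564 FPKM, with COL1A2 the most abundant for D17 and SPARC for the others. For all these markers, their part in the result was not tested.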

How the data were processed

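Groups were taken from the sample labels, and the table columns were matched to groups by name. Per the labels, reads were processed with Trimmomatic 0.38, TopHat2, Cufflinks and Cuffdiff on CanFam3.1, and the tables have Cuffdiff's columns. The article names STAR, voom and limma, and also another RNA kit and library kit (miRNeasy and TruSeq Stranded) than the labels (RNeasy and NEBNext Ultra Directional). The authors deposited FPKM values, 1 per group, so depth and spread between libraries are unknown. The authors' comparison columns, (log2 fold change, test statistic, p-value, q-value) were not used. There were 0 unused per-sample columns. Log2 ratios were computed without a pseudocount, and members past 2-fold were counted beside all listed genes, with no test. A value of 0 in 1 group counts as past any fold and gives no ratio. Members and lists were chosen with earlier results of these data known. All members were named, and of each list up to 5 listed genes with the largest absolute log2 ratio at 1 FPKM or more, plus genes in all tables. The results for some genes of these lists are not reported here. The partner genes without an entry and the marker genes named as absent were chosen after the tables were seen. Of the 29 members, 28 matched a symbol in a RefSeq gene table of another assembly, used for names alone, in which 141 symbols meet the rule. Coordinates are those of the tables, whose start base (0 or 1) is not stated. In no table did a member overlap another listed gene. The counting was tested on simulated data. Python 3.11.15, numpy 2.4.6, pandas 2.3.3 and matplotlib 3.10.9 were used. Alternatives were other fold thresholds, a filter on low values, pseudocounts of 1 and 0.1 FPKM, centring on the median, values above 0, 1 entry per symbol, reversed group names, and the other HMPOS parental value.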

Additional observations from a re-analysis of the deposited data

How the results depend on the processing

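No paired analysis was possible because each group has 1 pooled value and no values of single libraries, and for the same reason no library could be left out. Reading the group names the other way round exchanges the counts past 2-fold, to 1 higher and 14 lower for D17 and to 1 higher and 3 lower for HMPOS. The sources used here are in conflict over direction, so these directions are not settled. A threshold of 1.5-fold gave 2 lower members for D17 and 5 higher for HMPOS, and any fold gave 2 lower for D17, 6 higher for HMPOS and 12 lower for HMPOS against POS. Centring on the median of all listed genes gave 2 lower for D17 and 1 higher for HMPOS, and turned IL11RA in HMPOS to -0.02 and IL6ST in HMPOS against POS to 0.05. A pseudocount of 1 FPKM, which draws in the ratios of low values, gave 4 lower members for HMPOS against POS, where CCL17, IL11 and IL15RA fell short of 2-fold. IL11RA, IL13RA2, IL1RAP and IL6 fell short in D17 and CXCL8 in HMPOS. The same pseudocount took the log2 ratio of IL33 in D17 to 4.00, of CCL5 in HMPOS to 1.23 and of CCL5 in HMPOS against POS to -2.67. Of 45 log2 ratios, 15 shifted by more than 1.5-fold with this pseudocount and 3 with 0.1 FPKM. A value added equally to both groups cannot change a direction, so pseudocounts are no check of the directions. The 5 HMPOS ratios that could be recomputed with the parental value of the other table shifted by less than 1.5-fold. Both parental values come from the same libraries and differed by at most 0.00166 in log2, so this is no separate check of the ratios. For the centred results the cause was not tested. Depth is unknown, so the precision of values below 1 FPKM cannot be given.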

Other observations

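Some members lie close together on CanFam3.1. OSMR (70014761 to 70067490) and LIFR (70328942 to 70376127) on chromosome 4 are 261 kb apart, and in D17 OSMR was higher in extravasation-positive cells (log2 ratio 0.87) and LIFR lower (-0.98). CCL5 and CCL2 on chromosome 9 are 1.18 Mb apart and had the same direction in each of the 3 tables. CCL17 and CX3CL1 on chromosome 2 are 17.2 kb apart, and each was listed in a different table, CCL17 for HMPOS against POS and CX3CL1 for D17. IL13RA2 and IL13RA1 on chromosome X are 3.13 Mb apart and were both higher in extravasation-positive D17 cells, with log2 ratios of 2.53 (0.96 with 1 FPKM added to each value) and 1.07.

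D17 and HMPOS against POS, which share no libraries, had 11 members in common, 47.8% of the former and 68.8% of the latter. Over all genes the tables had 2623 in common, 59.5% of the D17 table and 45.6% of the other.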
